A study of Rattus norvegicus with 325 samples.

Results

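The diaphragm, the main muscle of breathing, was compared between young adult rats of 6 months and rats of 18 months, an age at which the animals are in mid-life. The members were the 12 diaphragm libraries labelled 18 months and the 12 labelled 6 months, chosen by muscle and age alone, out of 325 RNA sequencing libraries of 4 muscles and 7 ages. All came from male rats of the outbred Sprague Dawley strain, and the labels name no treatment, so both groups share strain and sex and differ by age. The study treats a library as a single rat, but the labels do not say which libraries of different muscles came from one animal. The tissues of one age were collected on one day, within one window from morning to early afternoon, so that age and collection day cannot be told apart in any comparison given here.

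Muscle ages slowly, and 18 months lies before the steep loss of mass known from very old rats. The diaphragm never rests, and it holds slow and fast fibres side by side in a sheet that is lined by mesothelium and rich in connective tissue. Known themes of muscle ageing are slower collagen renewal, unstable neuromuscular junctions with a rise of acetylcholine receptor genes, more immune cells, and shifts in the daily clock, a feedback loop of transcription factors that runs in nearly every cell.

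The 6-month libraries held 19.4 M to 63.0 M counts (M, mega) (median 27.0 M) and the 18-month libraries 24.3 M to 66.5 M (median 43.9 M), so the older group was the deeper. The adult myosins of a mixed muscle were all abundant. Myh1 (fast type IIx) had medians of 30910 and 27890 CPM (counts scaled to a library of 1 M) at 6 and 18 months, Myh2 (fast type IIa) 14770 and 12570, and Myh7 (slow) 19030 and 23880. One library stood apart from its group: in replicate 11 of 18 months, 14.5% of 8970 well expressed genes lay more than 2-fold from the median of the other libraries of its age, against 0.111% to 1.85% in the remaining 23 libraries of both ages. It had by far the most extreme score on the first principal component (-64.1, the next library -11.3), which held 37.4% of the variance. Results are therefore given with and without this library, which is called replicate 11 below.

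Of 12035 genes tested in limma-voom, 271 were called at 18 against 6 months, that is, they changed by more than 1.5-fold and passed 0.05 after Benjamini-Hochberg adjustment. These were 2.25% of the genes tested. Of the 271, 195 were higher (1.62%) and 76 lower (0.631%) at 18 months. Without replicate 11, 241 were called (2%), 187 higher (1.55%) and 54 lower (0.449%), and 209 of the 271 kept their call, 166 of the higher and 43 of the lower genes. Changes were small. The median size was 0.82 on the log2 scale, 69 genes changed by more than 2-fold (63 higher, 6 lower), and the median change of all genes tested was -0.00065. A test against a change of 1.5-fold itself, limma's treat test, left 1 gene, Tfrc. At any fold, 2810 genes had an adjusted p under 0.05 (1163 higher, 1647 lower). In 118 of the called genes, 93 of them higher, the mean level lay under 1 CPM. After all diaphragm libraries were thinned to the total of the shallowest, 18.1 M counts, 230 genes were called (168 higher, 62 lower), and 198 of the 271 were among them.

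Genes of the daily clock were among the most changed. In the clock, Arntl (which encodes Bmal1) and Clock activate the Per and Cry repressors, Nr1d1 (Rev-erb alpha) and output genes such as Dbp, while Nr1d1 represses Arntl, and Dbp and Nfil3 act in opposite ways on the same D-box sites. Of the 15 clock genes tested, 5 were higher (Ciart, Dbp, Nr1d1, Per3 and Per2) and 2 lower (Arntl and Nfil3). Of all genes tested 1.62% were higher and 0.631% lower. The list median was 0.45 on the log2 scale, beside -0.00065 for all genes. Per2 lost its call when any of 8 libraries was left out, replicate 11 among them. Without replicate 11, 4 were higher and 2 lower, with a median of 0.42.

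The start regions of 4 of the called clock genes, those that held a match to a clock motif, are shown here. They are the 300 bases from 250 before to 50 after the gene start in RefSeq (GRCr8 build, not the older build of the counts), written in lower case with motif matches in capitals, where a match on the other strand shows as its reverse complement. Motifs searched were the E-box CACGTG, its variant CACGTT, the D-box TTATGTAA or TTACGTAA, and the Nr1d1 and Ror element, AANT followed directly by AGGTCA or GGGTCA. The windows lie at chr2:186112197-186112496 (minus strand) for Ciart, chr9:99496944-99497243 (minus) for Per2, chr10:84231763-84232062 (minus) for Nr1d1 and chr1:176766078-176766377 (plus) for Arntl, which RefSeq lists as Bmal1.
Ciart: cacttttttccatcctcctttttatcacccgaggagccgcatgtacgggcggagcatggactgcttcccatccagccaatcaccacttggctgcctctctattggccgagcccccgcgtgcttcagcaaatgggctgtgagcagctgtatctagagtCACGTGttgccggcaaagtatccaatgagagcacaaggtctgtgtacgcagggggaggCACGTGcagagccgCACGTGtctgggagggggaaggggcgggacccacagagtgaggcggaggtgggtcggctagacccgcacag
Per2: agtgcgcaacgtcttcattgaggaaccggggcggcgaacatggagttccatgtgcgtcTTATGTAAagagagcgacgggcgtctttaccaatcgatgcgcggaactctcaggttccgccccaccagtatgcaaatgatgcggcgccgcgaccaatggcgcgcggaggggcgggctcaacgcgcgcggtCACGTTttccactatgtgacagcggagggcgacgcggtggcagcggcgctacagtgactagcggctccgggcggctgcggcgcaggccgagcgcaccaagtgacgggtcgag
Nr1d1: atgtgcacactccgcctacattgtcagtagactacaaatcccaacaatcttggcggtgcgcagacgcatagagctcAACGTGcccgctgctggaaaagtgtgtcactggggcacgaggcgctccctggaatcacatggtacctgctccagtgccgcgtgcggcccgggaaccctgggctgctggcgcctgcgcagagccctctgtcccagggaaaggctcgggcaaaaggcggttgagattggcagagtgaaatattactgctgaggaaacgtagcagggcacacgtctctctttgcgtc
Arntl: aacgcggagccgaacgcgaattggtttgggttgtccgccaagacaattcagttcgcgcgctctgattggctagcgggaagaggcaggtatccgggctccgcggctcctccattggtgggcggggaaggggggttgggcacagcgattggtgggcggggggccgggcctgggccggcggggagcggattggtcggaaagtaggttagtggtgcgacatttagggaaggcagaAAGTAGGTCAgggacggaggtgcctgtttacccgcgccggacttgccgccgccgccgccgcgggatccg

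The Ciart window held 3 E-boxes. That of Per2 held 1 D-box and 1 variant E-box, that of Nr1d1 1 variant E-box, and that of Arntl 1 match to the Nr1d1 and Ror element. Windows were found for 15 of the 18 genes on the clock list, and for all 7 that were called. Dbp, Per3 and Nfil3 had no match in theirs. Of 27457 promoter windows in the table, 6.65% held the E-box, 4.93% its variant, 1.01% the D-box and 0.419% the Nr1d1 and Ror element. Among the 8 clock genes with a window but no call, 3 held an E-box and 1 the variant. A match describes the letters of the window and is no evidence of binding.

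Dbp, a transcription factor at the output of the clock, had levels of 11.6, 22.0 and 45.7 CPM (lowest, median, highest) at 6 months and 37.0, 81.0 and 146 CPM at 18 months. Its log2 level rose by 1.81 (SE 0.28, adjusted p = 2.62e-06), and 11 of the 12 older libraries lay above the highest young one. Ciart, a repressor of the Clock and Bmal1 pair, went from 0.141, 0.674 and 4.17 CPM to 0.854, 7.49 and 17.9 CPM. Its rise of 3.00 (SE 0.83, adjusted p = 0.00578) was the largest of any called gene, yet the groups overlapped, with 7 of 12 older libraries above the young range. Nr1d1 rose by 0.80 (SE 0.15, adjusted p = 4.17e-05) from a median of 292 to 443 CPM, and Per3 by 0.71 (SE 0.15, adjusted p = 0.000462) from 45.7 to 77.7 CPM.

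On the opposite arm, Arntl had 38.6, 56.3 and 75.2 CPM at 6 months and 15.5, 29.2 and 51.7 CPM at 18 months. Its log2 level fell by 0.99 (SE 0.22, adjusted p = 0.000535), and 8 of 12 older libraries lay below the lowest young one. Nfil3, the repressor at D-boxes, fell by 0.92 (SE 0.14, adjusted p = 2.41e-06) from a median of 32.7 to 17.7 CPM, with 11 of 12 older libraries below the young range. Clock had a change of -0.43 (adjusted p = 0.00179) and Cry1 of -0.36 (adjusted p = 6.82e-05), both under 1.5-fold.

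The other ages place these clock values. Dbp had a median of 43.1 CPM at 9 months and 50.7 at 12 months, and Arntl had 42.6 and 40.2 CPM. Among the 7 ages 6 months held the lowest median of Dbp and the highest of Arntl. Against 9 months, the 18-month changes were 0.53 for Dbp (adjusted p = 0.16), 0.53 for Ciart (0.451), 0.21 for Nr1d1 (0.354), 0.20 for Per3 (0.373), 0.30 for Per2 (0.353), -0.36 for Arntl (0.276) and -0.10 for Nfil3 (0.685), and none was called. Clock genes follow the hour of day as well as age, and with each age collected on one day the part of the collection day cannot be told apart from age.

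**Figure D1:**
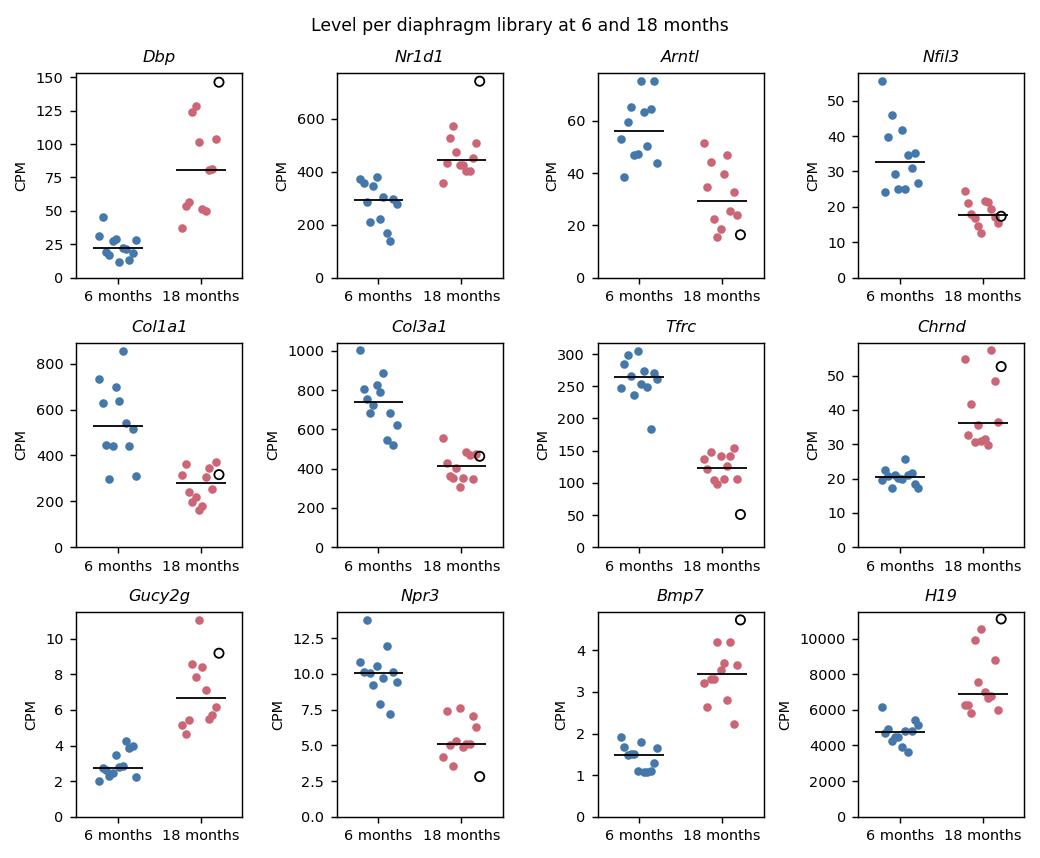
Level of 12 genes in CPM (linear axis from 0) in each diaphragm library at 6 months (blue, n = 12) and 18 months (red, n = 12). Lines mark medians and the open circle is replicate 11 of 18 months. The groups of Tfrc, Bmp7, Gucy2g and Chrnd do not overlap, and replicate 11 is the extreme 18-month library for Tfrc, Dbp, Nr1d1, Npr3, Bmp7 and H19.

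Several fibrillar collagen genes fell. Of 16 collagen genes tested, 5 were lower and 0 higher, where 0.631% of all genes tested were lower. The list median was -0.27, and 13 of the 16 changes were below 0. The called ones were Col1a1, Col1a2, Col3a1, Col5a3 and Col11a1, which encode chains of the fibrils that give tendon and connective tissue their strength. Col11a1 lost its call without replicate 11 (adjusted p = 0.0914), and also without any of 3 young libraries (replicates 5, 7 and 10). In bulk tissue fewer cells of a type and less RNA per cell cannot be told apart.

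Col3a1 had 519, 742 and 1007 CPM at 6 months and 309, 416 and 555 CPM at 18 months. Its log2 level fell by 0.82 (SE 0.12, adjusted p = 1.65e-06), with 11 of 12 older libraries below the young range. Col1a1, which encodes the main chain of type I collagen, went from a median of 528 to 280 CPM (a fall of 0.98, SE 0.17, adjusted p = 2.93e-05). Here the ranges overlapped, 300 to 857 against 163 to 371 CPM. Col1a2, the partner chain, fell by 0.78 (SE 0.15, adjusted p = 0.000115), and its symbol stands on more than 1 line of the count files, which were summed. Col5a3 fell by 0.64 (SE 0.11, adjusted p = 2.63e-05) from a median of 32.0 to 21.1 CPM.

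None of the 20 collagen processing genes tested was called (median -0.08), and their summed level was 974 to 1310 CPM (median 1110) at 6 months and 794 to 1040 CPM (median 914) at 18 months. In this list Sparc, a collagen-binding matrix protein, had 482 to 696 CPM at 6 months and 360 to 476 CPM at 18 months, with no overlap, a change of -0.52 (SE 0.07, adjusted p = 6e-08) that stayed short of 1.5-fold. Serpinh1, the collagen chaperone, had a change of -0.21 (SE 0.07, adjusted p = 0.0295). Among 26 matrix glycoproteins and proteoglycans 1 was higher and 0 lower (list median -0.09). That gene, Fn1, which encodes fibronectin, rose by 0.62 (SE 0.19, adjusted p = 0.0107) from a median of 291 to 400 CPM, with 1 older library at 1113 CPM. Its call was lost when any of 5 libraries was left out (young replicates 3 and 10, older replicates 0, 8 and 9). Of 11 fibroblast and tendon markers tested 0 were called (median -0.08), and their summed level was 2030 to 2950 CPM (median 2590) at 6 months and 1870 to 3050 CPM (median 2250) at 18 months.

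Of 17 matrix proteases and inhibitors tested, 2 were higher and 2 lower, beside 1.62% and 0.631% of all genes tested. Adamts12, a secreted metalloproteinase, fell by 0.69 (SE 0.08, adjusted p = 9.21e-10), from 32.8 to 50.6 CPM at 6 months to 15.99 to 29.5 CPM at 18 months, with no overlap. Adamts4, an aggrecanase, fell by 0.75 (SE 0.22, adjusted p = 0.0087). Mmp11 rose by 0.64 (SE 0.13, adjusted p = 0.000238) and Mmp9, the gelatinase of neutrophils and macrophages, by 1.63 (SE 0.60, adjusted p = 0.0378) at medians of 0.178 and 0.296 CPM. Neither was called without replicate 11, and Mmp9 also lost its call without any of 4 other libraries and Mmp11 without young replicate 8.

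Tfrc, the transferrin receptor through which cells import iron, had the smallest adjusted p of the 271 genes. It had 183, 264 and 305 CPM at 6 months and 50.9, 124 and 155 CPM at 18 months, with no overlap, a log2 fall of 1.16 (SE 0.11, adjusted p = 2.98e-12). Replicate 11 was the lowest library, and without it the fall was 1.05 (adjusted p = 7.97e-13). Of the 14 iron genes tested, Tfrc alone was called, and the list median was -0.01.

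Nppc, Gucy2g and Npr3 were among the largest rises and falls. Nppc, which encodes C-type natriuretic peptide, had 0.777, 2.40 and 4.48 CPM at 6 months and 3.94, 4.98 and 5.86 CPM at 18 months, a rise of 1.26 (SE 0.19, adjusted p = 1.12e-06). Gucy2g, an orphan receptor guanylyl cyclase, rose by 1.25 (SE 0.16, adjusted p = 4.69e-08), from 2.02 to 4.26 CPM to 4.67 to 11.03 CPM with no overlap. Npr3, the receptor that clears natriuretic peptides, fell by 0.98 (SE 0.12, adjusted p = 2.77e-08) from a median of 10.1 to 5.08 CPM. All 3 kept their calls without replicate 11. The guanylyl cyclase receptors for natriuretic peptides, Npr1 and Npr2, given beside them after their values were seen, had changes of 0.00051 (adjusted p = 0.996) and 0.10 (adjusted p = 0.0683).

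The remaining large rises at a mean level over 1 CPM were in genes of varied function. Bmp7, a bone morphogenetic protein ligand, rose by 1.29 (SE 0.16, adjusted p = 1.98e-08), from 1.07 to 1.91 CPM at 6 months to 2.23 to 4.73 CPM at 18 months, with no overlap. Hcn4, a pacemaker channel, rose by 1.36 (SE 0.20, adjusted p = 7.44e-07), Ntsr1, a neurotensin receptor, by 1.28 (SE 0.19, adjusted p = 7.7e-07), and Fanca, a gene of DNA crosslink repair, by 1.18 (SE 0.21, adjusted p = 2.97e-05) with no overlap. Ggt6 rose by 1.77, Cd1d1, which presents lipid antigens, by 1.35 and Grid1, a glutamate receptor subunit, by 1.17. Each of these 7 kept its call without replicate 11.

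Among the largest falls beside those already given were Naalad2, a peptidase gene (-0.95, SE 0.16, adjusted p = 1.48e-05), Cntn1, a neural adhesion molecule (-0.87), Unc5c, a netrin receptor (-0.84), and Fam111a (-0.84). Tnni3, the cardiac troponin I gene, fell by 0.89 (SE 0.28, adjusted p = 0.0168) from a median of 2.17 to 1.14 CPM, but without replicate 11 its change was -0.57 and was not called (adjusted p = 0.114). Unc5c lost its call without young replicate 10 or without older replicate 4.

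For 15 of the 271 called genes the 2 age groups did not overlap (9 higher, 6 lower), and this held for 50 genes, 0.415%, of all tested. Beside Bmp7, Gucy2g, Fanca, Tfrc and Adamts12, and Chrnd below, these were Tll2, Igfbpl1, Slc6a2, Dact2 and LOC102723236 among the higher genes, and Gimap4, Cav2, Zim1 and Smc4 among the lower ones. These genes were named after their values were seen. Cav2, Gimap4 and Zim1 changed by less than 1.5-fold without replicate 11, and Igfbpl1 lost its call without young replicate 2.

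At the neuromuscular junction a single gene was called. Of the 19 genes of the junction and of denervation tested, Chrnd alone was higher and none was lower, beside 1.62% higher over all genes. The list median was 0.19, with 14 of 19 changes above 0. Chrnd, the delta subunit of the muscle acetylcholine receptor, had 17.2, 20.5 and 25.8 CPM at 6 months and 29.8, 36.1 and 57.5 CPM at 18 months, with no overlap. Its rise was 0.94 (SE 0.17, adjusted p = 2.91e-05). The alpha subunit gene Chrna1 had a change of 0.24 (adjusted p = 0.413), the foetal gamma subunit gene Chrng of 1.29 (adjusted p = 0.0926), and the denervation markers Myog and Runx1 of 0.06 and 0.32 (adjusted p = 0.86 and 0.419).

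Of the adult fibre type genes Myh4 alone was called. Myh4, the myosin of the fastest type IIb fibres, had 285, 1332 and 8662 CPM at 6 months and 2299, 6621 and 10850 CPM at 18 months, a rise of 1.66 (SE 0.48, adjusted p = 0.00844). The young libraries were spread over a wide range, and 3 of them lay above the older median. It was 1 of 13 adult fast fibre genes tested, with changes from -0.23 to 1.66 and a list median of 0.10. The 11 slow fibre genes, with changes from -0.18 to 0.44, held no call, and Myh7 had a change of 0.26 (SE 0.07, adjusted p = 0.00348). None of the 7 developmental sarcomere genes was called, with changes from -0.49 for Myl6b (adjusted p = 0.0329) to 1.26 for Myl4 (adjusted p = 0.145) and a median of 0.37, which was also the change of Myh3. Actc1 had 0.31, and without replicate 11 Myl6b was lower (-0.60, adjusted p = 0.0131). H19, an abundant imprinted non-coding RNA, rose by 0.69 (SE 0.12, adjusted p = 1.48e-05), from 3609 to 6148 CPM to 5820 to 11100 CPM. It was the one called gene of 18 on the growth hormone and Igf list.

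The immune lists held 1 call or 0, apart from that of T and NK cells. Of its 17 genes tested 3 were higher (Cd247, Cd2 and Zap70), where 1.62% of all genes tested were higher. Of the 17 changes 16 were above 0, and the median was 0.45. Cd247, the zeta chain of the T cell receptor, rose by 0.95 (SE 0.31, adjusted p = 0.0192) at medians of 0.311 and 0.697 CPM. Cd247 kept its call without replicate 11, while Cd2 and Zap70 did not. The list then had 2 higher genes, beside 1.55% of all genes tested, and a median of 0.44. The summed level of the list was 20.8 to 31.9 CPM (median 24.0) at 6 months and 25.7 to 45.8 CPM (median 32.8) at 18 months.

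Of 22 macrophage genes tested 1 was higher, Fcgr3a (1.09, SE 0.39, adjusted p = 0.0303), which lost its call without any of 4 libraries, replicate 11 among them. Of the others Cd68 had a change of 0.51 (adjusted p = 0.0139), and 21 of 22 changes were above 0 (median 0.32). The summed macrophage level ran from 330 to 652 CPM (median 481) at 6 months and from 466 to 1300 CPM (median 573) at 18 months, with Marco at 0 in all 24 libraries. Of 43 interferon response genes 1 was higher, Zbp1, a nucleic acid sensor (1.11, SE 0.35, adjusted p = 0.0145), with a median of 0.02 for the list. None of 17 complement genes (median 0.38, 15 changes above 0), 20 MHC genes (median -0.0034, 10 above 0) or 9 B and plasma cell genes (median 0.61, 7 above 0) was called. The summed B and plasma cell level had medians of 14.4 and 12.0 CPM at 6 and 18 months.

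Tissues that border the diaphragm can add RNA. Of 10 mesothelium genes 1 was higher, Krt8 (0.85, SE 0.32, adjusted p = 0.0439), and its call was lost when any of 11 libraries was left out. The summed mesothelium level was 21.0 to 186 CPM at 6 months and 33.2 to 176 CPM at 18 months. All 7 liver genes tested had changes above 0 (median 0.94), as had all 8 red cell genes (median 0.43) and 9 of 10 mesothelium genes (median 0.62, and 0.60 without replicate 11), while 3 of 13 adipocyte genes did (median -0.19). Liver genes summed to 2.94 to 60.7 CPM and 5.87 to 27.0 CPM, red cell genes to 499 to 923 and 579 to 2380 CPM, and adipocyte genes to 137 to 1230 and 183 to 350 CPM, with none called. Endothelium genes had 14 of 15 changes below 0 (median -0.20), with 0 called and summed levels of 1330 to 1480 and 1110 to 1330 CPM. None of 11 smooth muscle and pericyte genes (median -0.0033) and none of 14 Schwann cell and myelin genes was called (median -0.15). Without replicate 11, 1 liver gene was higher, Fgg (1.24, adjusted p = 0.0408), and 1 myelin gene lower, Mag (-1.18, adjusted p = 0.0185). The part of cell composition in the changes given above was not tested.

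**Figure D2:**
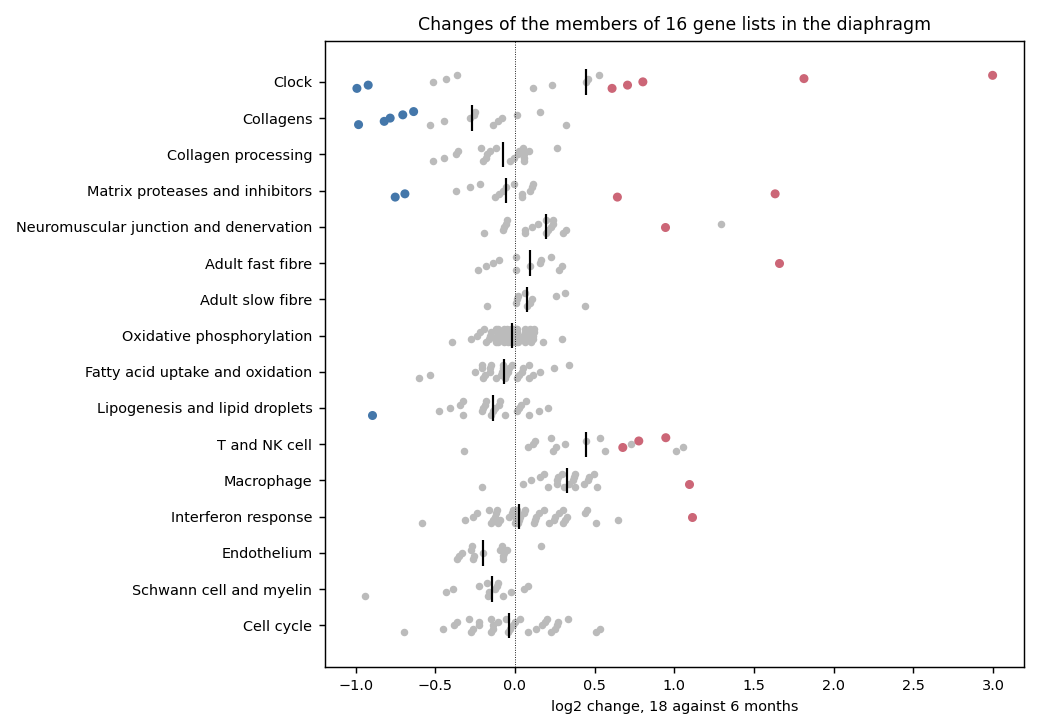
Log2 change at 18 against 6 months of each tested member of 16 gene lists. Red and blue points were called higher and lower, grey points were not called, and black bars mark list medians. The clock list spreads to both sides with 5 higher and 2 lower members, collagens lie to the left with 5 lower, and the 62 oxidative phosphorylation genes stay near 0 with none called.

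Energy metabolism changed in few genes. None of 62 oxidative phosphorylation genes was called, with changes from -0.39 to 0.30 and a median of -0.02. The most abundant of the nuclear ones listed, Atp5b and Atp5a1, had changes of -0.04 and -0.07. None of 30 genes of fatty acid uptake and oxidation was called (median -0.07), Lpl having a change of -0.21 (adjusted p = 0.0381) and Hadhb of -0.09. Pfkfb3, whose product is a strong activator of glycolysis, rose by 0.85 (SE 0.21, adjusted p = 0.002) from a median of 24.4 to 50.5 CPM and was the one called of 21 glycolysis genes. Without replicate 11 Slc16a3, a lactate carrier gene, was lower as well (-0.65, adjusted p = 0.00348). Pnpla3, a lipid droplet enzyme and the one called of 23 lipogenesis genes, fell by 0.90 (SE 0.19, adjusted p = 0.000407) from 14.2 to 6.84 CPM. Idi1, the one called of 18 cholesterol synthesis genes, fell by 0.68 (SE 0.13, adjusted p = 0.000108), though without replicate 11 its change of -0.49 was under 1.5-fold.

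Stress and growth lists held few calls. Of 23 immediate early genes 2 were higher, Egr1 and Junb, beside 1.62% of all genes tested. Egr1 lost its call without any of 13 libraries and Junb without any of 10, replicate 11 among them in each case. The rise of Egr1 (0.79, SE 0.29, adjusted p = 0.0382) is unsure for a further reason, since young replicate 0 held 409 CPM against 16.04 to 42.0 in the other young libraries and 36.8 to 100.2 CPM at 18 months. With edgeR the change of Egr1 was -0.0072 (adjusted p = 0.991). None of 22 heat shock and chaperone genes, 22 genes of endoplasmic reticulum stress, 16 glucocorticoid response genes, 16 atrophy genes, 15 myostatin and activin genes, 32 cell cycle genes, 18 satellite cell and Notch genes, 13 polyamine genes or 20 antioxidant genes was called. The atrophy ubiquitin ligase gene Fbxo32 had a change of 0.00073 (SE 0.09). Cdkn1a, a cell cycle inhibitor raised in stressed cells, had 36.2 to 64.5 CPM at 6 months and 55.0 to 96.2 CPM at 18 months, a change of 0.53 (SE 0.15, adjusted p = 0.00881) short of 1.5-fold, and none of the 5 cyclin-dependent kinase inhibitor genes tested was called.

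Whether the changes stand out in other animals was asked with the 9-month and 21-month diaphragms, since none of their libraries enters the comparison of 18 with 6 months. At 21 against 9 months 64 genes were called, 0.532% of those tested (0.299% higher, 0.233% lower). Of the 271 genes 31 were called there in the same direction (23 higher, 8 lower) and 0 in the opposite one. These were 11.4% of the 271 and 48.4% of the 64. Without replicate 11 the shared genes numbered 35 of 241, or 14.5%. The sign of the change was the same for 206 of the 271 (76.0%), beside 57.8% of all genes tested. Medians were smaller at 21 against 9 months, 0.27 for the 195 higher genes and -0.15 for the 76 lower ones. Both contrasts come from one fit and share its estimate of the spread.

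Which groups were seen again differed. Col1a1 fell by 1.14 at 21 against 9 months (SE 0.18, adjusted p = 7.87e-06), Col3a1 by 0.89 (SE 0.13, adjusted p = 1.22e-06), Col1a2 by 1.00 and Tfrc by 0.76 (SE 0.12, adjusted p = 6.62e-06). Chrnd rose by 0.69 (SE 0.17, adjusted p = 0.0141), H19 by 0.95 (SE 0.12, adjusted p = 5.31e-08), Gucy2g by 0.76 and Nppc by 0.60, and Npr3 fell by 0.59. No clock gene was called there: Dbp had a change of 0.39 (adjusted p = 0.568), Ciart of 0.08 (0.977), Nr1d1 of 0.02 (0.979), Arntl of -0.25 (0.721) and Nfil3 of -0.32 (0.364). Bmp7 had -0.14 (adjusted p = 0.788) and Myh4 0.87, which was not called.

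**Figure D3:**
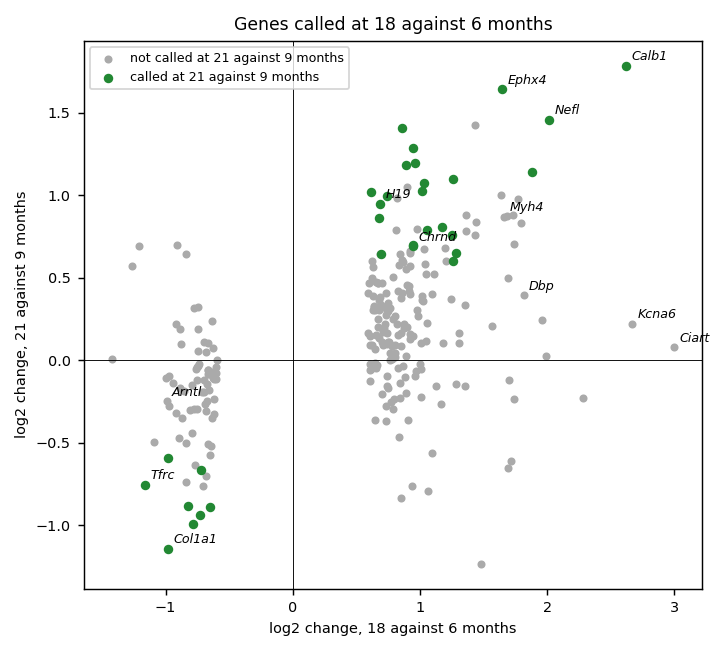
Log2 change at 18 against 6 months (horizontal) and at 21 against 9 months (vertical) for the 271 genes called in the first comparison. The 31 green genes were also called in the second, all in the same direction, Calb1, Nefl and Ephx4 at the upper right and Col1a1 and Tfrc at the lower left, while Ciart, Kcna6 and Dbp lie at 0.08, 0.22 and 0.39 on the vertical axis.

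The course over 7 ages differed between genes. Compared with 6 months, the median change of the 195 higher genes was 0.40 at 9 months, 0.49 at 12, 0.86 at 18, 0.68 at 21, 0.80 at 24 and 0.90 at 27 months. That of the 76 lower genes was -0.24, -0.29, -0.75, -0.43, -0.51 and -1.03. The genes were chosen by their change at 18 months, so the medians of that age are not comparable with the others. All these values share the 6-month libraries. Measured against 9 months instead, and sharing the 18-month libraries, the change at 18 months was -0.92 for Tfrc (adjusted p = 1.31e-07), -0.67 for Col1a1 (0.00854), -0.62 for Col3a1 (0.000788), 0.83 for Chrnd (0.000645), 0.62 for H19 (0.000465), 1.12 for Hcn4 (5.36e-05) and 0.60 for Nppc (0.0101). These passed both thresholds, while Bmp7 (0.44, adjusted p = 0.0214) and Gucy2g (0.47, adjusted p = 0.0186) stayed under 1.5-fold.

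Some genes were nearer to their 6-month level again at 21 months. Of the 271 genes 16 passed both thresholds between 18 and 21 months. They were 11 higher genes that fell and 5 lower genes that rose, while 0 moved further from 6 months. Hcn4 had medians of 1.05 CPM at 6 months, 2.42 at 18 and 1.57 at 21 months, with a change of -0.79 between the last 2 ages (adjusted p = 0.00689). Slc6a2, the noradrenaline transporter, had a change of 0.73 from 6 to 18 months and of -0.74 from 18 to 21 months (adjusted p = 0.00451), and the potassium channel gene Kcna6 had 2.67 and -1.35 (adjusted p = 0.0164). The 2 steps share the 18-month libraries, and these 3 genes were named after their values were seen. All 271 genes were chosen by their 18-month values, so a return at 21 months cannot be told apart from the effect of that choice.

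**Figure D4:**
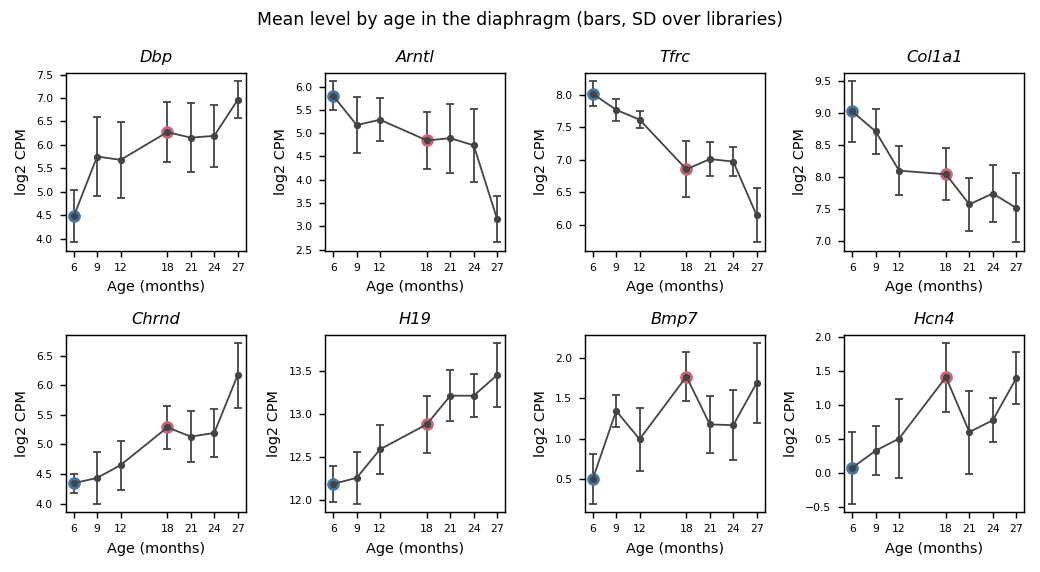
Mean log2 CPM with SD over libraries (n = 11 or 12 per age) for 8 genes at the 7 ages, with 6 months in blue and 18 months in red. Tfrc and Col1a1 lie lower at 18 than at 6 months and lower again at 27, Chrnd and H19 lie higher, Dbp is lowest and Arntl highest at 6 months, and Bmp7 and Hcn4 lie higher at 18 than at 21 months.

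To see how far the diaphragm stood alone, the same contrast was taken in 3 hind limb muscles. It called 513 genes in the gastrocnemius (4.32%, of which 3.63% higher and 0.691% lower), 346 in the soleus (2.84%, of which 1.66% higher and 1.18% lower) and 641 (5.45%, of which 4.11% higher and 1.34% lower) in the tibialis anterior. Of the 271 diaphragm genes, 88 were also called in the same direction in the gastrocnemius (32.5% of the 271, 17.2% of its calls), 81 in the soleus (29.9% and 23.4%) and 107 in the tibialis anterior (39.5% and 16.7%). Opposite calls numbered 0, 2 and 0. Called in the same direction in all 4 muscles were 32 genes (27 higher, 5 lower), and 117 had no such call in any limb muscle. Genes called in the opposite direction, or not tested in a limb muscle, count as having no such call there. Without replicate 11 these counts were 31 and 105 of 241. The limb muscles of one age were collected on the same day as the diaphragm, and the labels do not say which animals they share, so they are not taken as independent samples of age.

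Among the 32 were Ciart, Dbp and Arntl of the clock, Chrnd, Tfrc, Col1a1, Nppc, Gucy2g, Bmp7, Hcn4, Ntsr1 and Sln. Tfrc fell by 1.16 in the diaphragm and, in the order gastrocnemius, soleus, tibialis anterior, by 1.24, 1.04 and 1.56. Chrnd rose by 1.502, 1.08 and 1.70, beside 0.94. Dbp rose by 1.21, 1.39 and 1.63, beside 1.81, and Arntl fell by 1.00, 0.88 and 0.79, beside 0.99. Nr1d1 had changes of -0.01, 0.51 and 0.53 and was called in none of the 3.

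The difference itself was tested over all libraries of the 4 muscles, with no term for the animal. Muscles that may share a rat were thus treated as independent. The test found 142 of 12784 genes between diaphragm and gastrocnemius (1.11%), 66 between diaphragm and soleus (0.516%) and 15 between diaphragm and tibialis anterior (0.117%). Replicate 11 decided much of this. Without it the counts were 53, 73 and 48, and 52, 57 and 15 of the first calls remained. Of the 271 genes, 15, 13 and 1 differed. Sln, which encodes sarcolipin, a regulator of the calcium pump, rose by 0.73 in the diaphragm and by 2.90 in the gastrocnemius, a difference of -2.15 (SE 0.46, adjusted p = 0.00232). Nr1d1 differed from the gastrocnemius by 0.82 (SE 0.21, adjusted p = 0.0104), but not past the threshold from the soleus or tibialis anterior (adjusted p = 0.541 and 0.708). Fn1 differed from the soleus, where its change was -0.12, by 0.75 (SE 0.20, adjusted p = 0.027). Calb1 differed from the soleus by 2.90 and from the tibialis anterior by 2.89 (SE 0.64, adjusted p = 0.0149). Sln, Nr1d1, Fn1 and Calb1 stayed past the threshold without replicate 11, and the last 3 were chosen here after their values were seen.

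**Figure D5:**
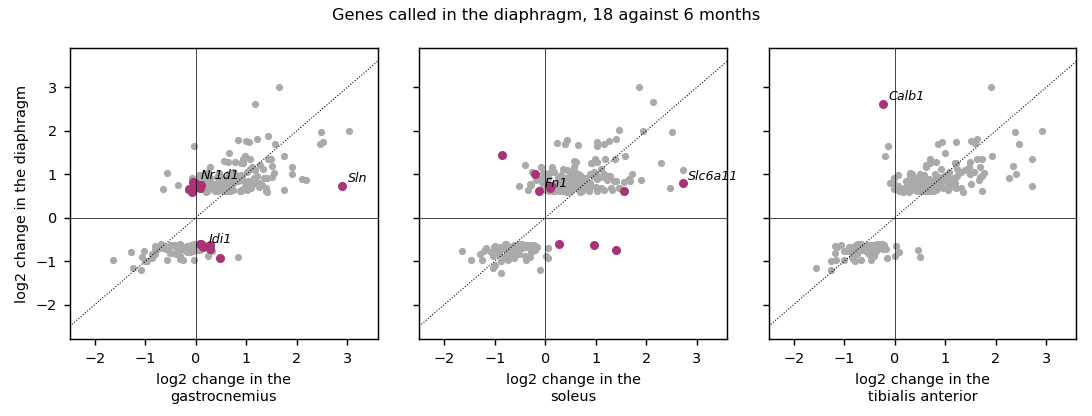
Log2 change at 18 against 6 months in each limb muscle (horizontal) and in the diaphragm (vertical) for the genes called in the diaphragm and tested in that limb muscle (240, 246 and 232 genes). Purple genes differed between the muscles in the interaction test over all libraries, and the dotted line marks equal change. Sln lies far to the right for the gastrocnemius.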

How the data were processed

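The submitters took the 4 muscles of male Sprague Dawley rats, kept tissue in RNAlater, extracted total RNA, removed ribosomal RNA and sequenced strand-specific libraries in read pairs. The authors deposited raw counts per gene, whole numbers without normalization, obtained with the ArrayStudio pipeline (version not given in the sources used here) on the rat B6.0 genome with an in-house gene model based on RefSeq. Each file held 17870 lines of 17315 symbols. The 494 symbols on more than 1 line (2.34% of counts, 218 of them with identical counts on their lines) were summed, as their reads may be shared between copies. No 2 diaphragm libraries held identical counts.

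Genes were filtered with filterByExpr by age (minimum count 10, minimum total 15), scaled by TMM in edgeR 4.0.16 and fitted with limma-voom (limma 3.58.1, R 4.3.3) over all 83 diaphragm libraries of 7 ages, which share one estimate of the spread. The contrast was 18 minus 6 months, two-sided, and a call needed more than 1.5-fold and a Benjamini-Hochberg adjusted value below 0.05. The difference between muscles was a contrast of contrasts over all 325 libraries, with no term for the animal, which the labels do not give. The fit was tested on simulated counts of independent libraries, with no outlying library, collection-day effect or shared animal put in. Depth was 18.1 M to 66.5 M (mega) counts per diaphragm library. Intervals of counting error are not given, since the spread between libraries covers it.

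Levels are CPM after TMM scaling, as lowest, median and highest library. Changes are log2 with their standard error. For genes near 0 the size of a fitted change depends on the prior count. Named genes are the 12 largest rises and 12 largest falls with a mean level over 1 CPM, up to 6 called members of each gene list (where none was called, the 2 most abundant), 4 myosins as a check of the label, and, at a mean level over 1 CPM, the 3 largest muscle differences for each limb muscle. Others are said to be chosen after their values were seen, and list members given with a p but no call are background to a list. Lists, groups and comparisons were chosen with earlier results of these data known. Lists are described by counts and medians, with no set test. Their counts are to be read beside the shares over all genes tested, 1.62% higher and 0.631% lower. Sequences are from RefSeq (GRCr8). Alternatives were edgeR's quasi-likelihood test, DESeq2 1.42.0, other scalings, filters, thresholds, weights and samples. Xist was not analysed here. A few other genes are not reported here.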

Additional observations from a re-analysis of the deposited data

Results flagged for a closer look

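For 9 genes the change from 6 to 18 months in the diaphragm differed from that in a limb muscle by the test of the difference itself (limma-voom over all libraries, adjusted p under 0.05 and over 1.5-fold). They are the 3 largest differences for each limb muscle among genes with a mean level over 1 CPM in the diaphragm at 6 and 18 months, a limit that leaves out Calb1, for example.

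Against the gastrocnemius, the diaphragm change was lower by -3.01 on the log2 scale for Ppp1r14c, a phosphatase inhibitor gene (adjusted p = 0.00331), by -2.15 for Sln (0.00232) and by -2.04 for LOC100911576 (0.0313). Without replicate 11 of the 18-month diaphragm, LOC100911576 lost its call (0.0771), and the lowest 18-month diaphragm held 2.13 CPM of it beside a group median of 49.1.

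Against the soleus, the differences were -2.73 for Kctd8 (0.003), -1.92 for the GABA transporter gene Slc6a11 (0.039) and 1.79 for Nell2 (0.0143). Kctd8 changed by 0.11 in the diaphragm and by 2.88 in the soleus, and Slc6a11 by 0.79 and 2.72. Nell2 changed by 0.71, not called, in the diaphragm and by -1.07 in the soleus.

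Against the tibialis anterior, the differences were -2.26 for Rrad, a small GTPase gene (2.46e-05), -1.74 for Tubb6, a tubulin gene (0.00442), and -1.73 for Runx1, a transcription factor known from denervated muscle (0.025). In the diaphragm their changes were -0.56, 0.19 and 0.32, none of them called with all libraries, and in the tibialis anterior 1.72, 1.96 and 2.07. The same 3 genes also differed from the gastrocnemius, by -1.35, -1.24 and -1.47. The highest 6-month diaphragm held 249.9 CPM of Rrad beside a group median of 33.5. Without replicate 11 the fall of Rrad in the diaphragm, 0.64, was called (0.0396). All comparisons in this part apart from that of LOC100911576 stayed past the threshold without replicate 11. Groups of 12 are too large for the check for single outlying samples, which was not applied.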

How the results depend on the processing

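The count of 271 genes (195 higher, 76 lower) stayed within 1.5 times under edgeR (298), DESeq2 (303), other scalings (273 and 285), quality weights (261), the fit of 6 and 18 months alone (194) and symbols on 1 line (266), and, added after the data were seen, with a library axis from the gastrocnemius as a covariate (230) and with thinning (230). That axis was the first principal component of the spread within the gastrocnemius groups. On it replicate 11 scored 55.5, the other 18-month libraries -5.43 to 11.9 and the 6-month libraries -4.97 to -0.455. A 27-month library reached 25.6. Whether the covariate also took up part of the age change was not tested. The count of 271 fell to 67 (43 higher, 24 lower) with Bonferroni and 69 (63 and 6) past 2-fold. It fell to 173 (116 higher) at an adjusted p under 0.01 and 150 (105 and 45) at a minimum count of 50. In the treat test it was 1 (0 and 1). With no filter it rose to 459, where 230 were lower and 49.9% higher instead of 72.0%. edgeR kept 223 and DESeq2 224 of the 271. Leaving out 1 library gave 241 to 314 genes, 156 to 232 higher and 54 to 98 lower.

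The 64 genes at 21 against 9 months became 100 with DESeq2, 16 with Bonferroni and 17 past 2-fold, and the 31 shared became 10 and 7. Against the gastrocnemius the 142 became 235 with total counts, 11 with Bonferroni, 44 past 2-fold and 53 without replicate 11; against the soleus the 66 became 13 and 35 with Bonferroni and 2-fold; and against the tibialis anterior the 15 became 106 with edgeR, 6 with Bonferroni, 26 with the replicate block and 48 without replicate 11. The causes were not tested. The change of Egr1 turned to -0.0072 in edgeR, the one reversal among 329 genes followed.

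Between young and older diaphragm libraries, 2 of 12 same-numbered pairs correlated over 0.1 (range -0.238 to 0.21). Of the 12 older libraries, 1 correlated best with its own number. Rats were killed for collection, so libraries of different ages cannot share an animal, and these correlations cannot show pairing by animal. Whether a replicate number marks the same rat across the muscles of an age was not tested. With the replicate block 285 genes were called (218 higher, 67 lower). Low counts limit the 118 called genes under 1 CPM.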

Other observations

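A few called genes known from neurons are given here, picked from the calls after their values were seen, with no list or share behind them. Nefl, a neurofilament gene, had 0 to 0.316 CPM at 6 months and 0.214 to 0.919 CPM at 18 months, with 11 of 12 older libraries above the young range (2.02, SE 0.40, adjusted p = 0.00014), and it was called again at 21 against 9 months (1.46). Nefm rose by 0.92 (adjusted p = 0.00583), Stmn2 by 0.90 (adjusted p = 0.0302) and Stmn3 by 1.80 (adjusted p = 0.017), the last 2 being stathmins that bind tubulin. Calb1, the calcium-binding protein calbindin, rose by 2.62 (SE 0.45, adjusted p = 1.48e-05) from a median of 0.0357 to 0.323 CPM, and by 1.79 at 21 against 9 months. All of these stayed called without replicate 11, but Stmn2 lost its call without any of 4 other libraries (young replicates 0, 1 and 9, older replicate 0). The Schwann cell and myelin list held no call, with 12 of 14 changes below 0, and Mag was lower without replicate 11.

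Some genes known from neutrophils and other myeloid cells were also picked from the calls after their values were seen, while the macrophage list had 1 of 22 called and 0 without replicate 11. Csf3r, the receptor of granulocyte colony-stimulating factor, rose by 0.62 (adjusted p = 0.0221), the chemokine receptor gene Cxcr2 by 0.82 (0.0344), S100a9 by 0.87 (0.02), the integrin gene Itgam by 0.70 (0.0203), Padi4 by 1.69 (0.00926) and Nfe2 by 0.74 (0.019). Their groups overlapped: S100a9 had 0.282 to 0.777 CPM at 6 months and 0.163 to 4.00 CPM at 18 months. Cxcr2 lost its call without any of 6 libraries (its change reaching 0.50), Csf3r without any of 4 and Itgam without young replicate 10. Itgb2, Trem1 and Slpi were called with all libraries, but lost their calls without any of 8, 9 and 12 libraries, replicate 11 among them. Xirp2, which encodes an actin-binding protein of striated muscle, was the most abundant of the 271 called genes (-0.75, SE 0.15, adjusted p = 0.000228), from a median of 13900 to 10340 CPM, and without replicate 11, at 2393 CPM, its fall was 0.59.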
